A study of Mus musculus with 4 samples.

Results

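SUMO proteins and the enzymes that attach them to other proteins were examined in RNA-seq of the mouse trigeminal ganglion, where the cell bodies of the face's sensory neurons lie among glia. The set comprised 8 genes, taken by gene name from the deposited table of 56035 gene rows: the modifiers Sumo2 and Sumo3, the activating enzyme subunits Sae1 and Uba2, and the ligases Pias1, Pias2, Pias3 and Pias4. Each name matched 1 row, and all 8 passed the filter of a mean level of 1 TPM or more, as did 15390 genes in all. TPM are transcripts per 1000000, a level scaled by gene length and library total. The K823R group held ganglia of male C57BL/6 mice, 8 weeks old, with a Trpv1 allele in which arginine replaces a lysine of the channel, called transgenic in one label and a knock-in in another. The WT group held ganglia of littermate control mice of the same strain, sex and age. Each group had 2 libraries. The protocol speaks of pairs of ganglia, and the labels used here give neither the zygosity of the allele nor the number of animals behind a library. All p-values therefore measure the spread of these libraries, and that spread may be technical.

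SUMO is a small protein related to ubiquitin that is joined to lysines of other proteins and changes their partners, location or activity. A heterodimer of SAE1 and UBA2 activates SUMO with ATP, a conjugating enzyme carries it, and ligases such as the PIAS proteins help transfer it to particular targets. SUMO2 and SUMO3 are close relatives that form chains and are conjugated in response to stress. The channel TRPV1, which opens to heat and capsaicin in nociceptors, is the SUMO target of this series, whose title links its SUMOylation to itch and H1 histamine receptors. The comparison here asks whether the transcripts of the SUMO machinery differ in ganglia that carry the K823R channel.

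The changed codon of Trpv1 is shown because it sets the K823R group apart from the WT group. In the wild-type reference transcript, which has 839 codons before the stop, it lies at chr11:73260454-73260456 on the plus strand of GRCm38, and it is printed in capitals with 15 bases on each side.
Trpv1 codon: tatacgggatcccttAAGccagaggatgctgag
The coding sequences of both modifiers are shown because they differ in how well reads can be assigned to them. In Sumo2 the capitals mark the codons of the glycine pair to which the mature protein is cut before conjugation. Its 288 bases end in 2 codons after that pair and the stop codon.
Sumo2: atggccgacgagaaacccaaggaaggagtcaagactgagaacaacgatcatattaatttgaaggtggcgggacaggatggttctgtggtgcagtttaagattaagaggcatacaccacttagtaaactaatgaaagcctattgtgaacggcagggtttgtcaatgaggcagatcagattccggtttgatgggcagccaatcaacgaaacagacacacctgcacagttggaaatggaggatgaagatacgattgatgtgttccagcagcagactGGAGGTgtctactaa
In Sumo3 the capitals mark each base that differs from Sumo2 in an alignment or has no partner there. The last 300 of its 333 coding bases are printed, and they run on for 18 codons after the glycine pair. Both are GENCODE M21 coding sequences read across introns.
Sumo3: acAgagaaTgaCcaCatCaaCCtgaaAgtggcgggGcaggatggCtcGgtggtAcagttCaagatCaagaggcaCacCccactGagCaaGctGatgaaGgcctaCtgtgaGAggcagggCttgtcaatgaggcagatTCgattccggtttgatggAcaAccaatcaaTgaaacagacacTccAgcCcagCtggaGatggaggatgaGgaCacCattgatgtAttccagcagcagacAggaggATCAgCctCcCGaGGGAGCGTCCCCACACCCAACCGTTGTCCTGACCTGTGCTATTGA
Of 285 aligned coding bases 233 were identical (81.8%), and the longest run that any of their coding transcripts shared was 17 bases. Reads were 150 bases long, per the labels, so the modifiers can be told apart from each other. The 4 Pias genes were further apart, with 58.8% to 64.6% identity of coding sequence over 6 pairs and shared runs of 14 to 19 bases.

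On GRCm38, Sumo2 lies on the minus strand of chromosome 11 at chr11:115523102-115536276, and Sumo3 on the plus strand of chromosome 10 at chr10:77606097-77618331. Sae1 (chr7:16320234-16387806) and Uba2 (chr7:34140688-34169599) lie on chromosome 7, both on the minus strand. Pias1 (chr9:62878368-62987924), Pias2 (chr18:77065208-77153800), Pias3 (chr3:96696384-96706070) and Pias4 (chr10:81153266-81167923) are spread over 4 chromosomes.

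The libraries had the transcripts of the labelled tissue. All 13 sensory neuron markers, among them the tubulin gene Tubb3 and the neuropeptide gene Calca, had a mean of at least 1 TPM, and they summed to 12035 and 11544 TPM in K823R and to 12211 and 10451 TPM in WT. The 5 satellite glia markers summed to 11007 and 12261 TPM in K823R and to 11072 and 10988 TPM in WT, and the 5 myelinating Schwann cell markers to 14104 and 16829 TPM in K823R and to 11402 and 14184 TPM in WT. Markers of other cell types or tissues differed between the libraries. The 6 markers of central nervous system glia summed to 235 and 284 TPM in K823R, against 10.5 TPM in WT replicate 1 and 198 TPM in WT replicate 2, with Mog at 0 in WT replicate 1. The 6 fibroblast and meningeal markers summed to 2826 and 895 TPM in K823R and to 340.2 and 1063 TPM in WT. Most of the sum in K823R replicate 1 was Ptgds, at 2374 and 472 TPM in K823R and at 109 and 577 TPM in WT. Dcn was at 208 and 219 TPM in K823R and at 117 and 304 TPM in WT. The 5 macrophage markers summed to 82.0 and 106 TPM in K823R and to 49.8 and 78.6 TPM in WT. The 5 blood markers summed to 319 and 334 TPM in K823R and to 492 and 245 TPM in WT, and the 5 pituitary markers to 22.9 and 19.5 TPM in K823R and to 1.69 and 4.28 TPM in WT, with Lhb at 0 in every library. For central glia, macrophages and pituitary, the lower K823R sum exceeded the higher WT sum. The fibroblast and blood sums overlapped between genotypes. WT replicate 1 stood apart for central glia, and it also had the lowest fibroblast sum and the highest blood sum. Each SUMO gene's log2 difference without WT replicate 1 is given below. Without that library the pituitary sum was 4.28 TPM in WT replicate 2, against 22.9 and 19.5 TPM in K823R. Most of the K823R sum was Gh, at 17.1 and 12.0 TPM in K823R and at 0.25 and 1.15 TPM in WT. Prl was at 3.05 and 3.56 TPM in K823R and at 0 and 0.11 TPM in WT. Pomc overlapped, at 1.99 and 3.51 TPM in K823R and at 1.44 and 2.69 TPM in WT. Cga was below 1 TPM in every library, and the pituitary sum was not tested. The part of these cell types and tissues in the SUMO gene values was not tested. In bulk tissue fewer cells of a type and less RNA per cell cannot be told apart.

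All 8 SUMO genes were transcribed in both genotypes, and none passed the test of a difference between them. By limma on log2(TPM + 1), 0 of 8 had an adjusted p below 0.05, against 0.0065% of all genes tested, and 0 had an unadjusted p below 0.05, against 4.76% of all genes. Log2 differences, K823R minus WT, ran from -0.15 to 0.15, with 3 above 0 and 5 below and a median of -0.020. The sign of that median depended on the library left out, from -0.055 without K823R replicate 1 to 0.026 without WT replicate 1. The median over all genes tested was 0.026 with all 4 libraries, and 57.4% of them were above 0. Each of the 8 intervals of 95% confidence included 0, with half-widths of 0.18 to 0.33. Taken back to TPM + 1, the lowest bound was a difference of -27.9% relative to WT, for Pias2, and the highest one of 32.6%, for Pias4. A difference of 2-fold in either direction thus lay outside the interval of every member, each taken singly. K823R and WT libraries were fully separated for 1 of 8 genes, Pias4, against 34.0% of all genes tested. The plot of TPM by library shows how close the libraries lay beside the distances between genes.

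**Figure D1:**
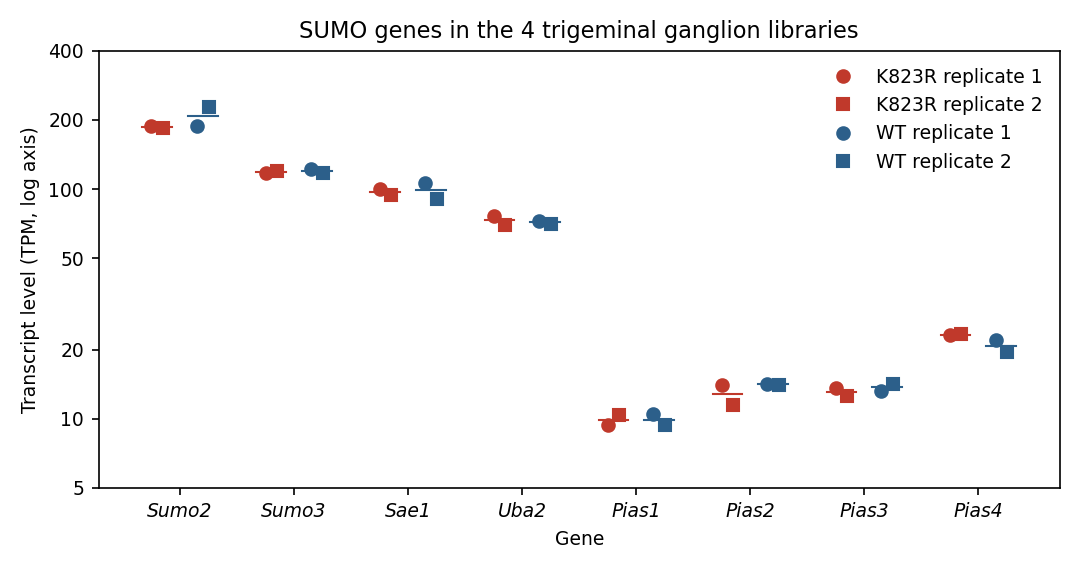
Transcript levels of the 8 SUMO genes in TPM (log axis), with K823R libraries left of WT libraries for each gene; symbols are libraries and lines are group means of 2. In both groups the modifiers lie highest, the activating enzyme subunits next and the Pias genes lowest. Sumo3 lies nearer to Sae1 than to Sumo2. Sumo2 is at 184 TPM or more and Pias1 at 10.5 TPM or less in every library.

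The modifiers were the most abundant of the set. Sumo2 had 188 and 184 TPM in K823R, against 187 and 228 TPM in WT. WT replicate 2 was the high one, and the other 3 libraries lay within 4 TPM of each other. The groups overlapped only because K823R replicate 1, at 187.52 TPM, stood just above WT replicate 1, at 187.48 TPM. The means were 186 ± 2.73 TPM in K823R and 208 ± 28.5 TPM in WT (SD, n = 2 each). On the log2 scale this was -0.15, standard error (SE) 0.11, with a limma adjusted p of 0.918. Leaving out WT replicate 2 gave -0.015. Leaving out WT replicate 1 gave -0.29, with an unadjusted limma p of 0.0155 and an adjusted p of 0.656. Sumo3 was the steadier modifier, at 117 and 120.03 TPM in K823R and at 122 and 118 TPM in WT. Its log2 difference was -0.020 with SE 0.069 (limma adjusted p = 0.986), and its interval of -0.20 to 0.16 was the narrowest of the set. Without WT replicate 1 the difference was 0.0083.

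Sumo2, unlike the rest of the set, has near-identical copies elsewhere in the genome that can take or lend reads. A BLAST search of GENCODE transcripts, at 95% identity or more over at least 150 bases, found 11 pseudogenes that match Sumo2 at 95.5% to 100% identity. For Sumo3 it found 1 gene, Gm49325, which overlaps Sumo3 on the same strand, and for the other 6 genes it found none. Of the 11 copies of Sumo2, 9 were listed at 0 in every library. The exception with the higher value was Gm10241, a processed pseudogene at chr16:20176727-20177012, whose 286 bases are the first 286 bases of the Sumo2 coding sequence printed above, with 0 differences. Gm10241 was listed at 0 in both K823R libraries, against 19.5 TPM in WT replicate 1 and 0.64 TPM in WT replicate 2. The other was Gm9836 on chromosome 5, listed at 0 in both K823R libraries and in WT replicate 1, and at 3.94 TPM in WT replicate 2. Both copies were thus listed above 0 in WT libraries alone, and no test of them was made. The copy nearest in sequence without being identical was Smt3h2-ps4 on chromosome 1, listed at 0 in all 4 libraries. It carries the single substitution C18T, counted from the first base of the Sumo2 coding sequence, shown here in capitals in the first 38 bases of each to show how little sets the copies apart.
Sumo2: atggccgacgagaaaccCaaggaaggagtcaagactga
Smt3h2-ps4: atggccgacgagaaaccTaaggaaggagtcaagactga
Because TPM is per length and the copies are short, they add little to Sumo2 when weighted by the deposited lengths. The combined level was 188 and 184 TPM in K823R and 193 and 229 TPM in WT. The copies made up 0% of it in K823R and 2.75% and 0.43% of it in WT. At the combined level both K823R libraries lay below both WT libraries, as was the case for 14.6% of all genes tested. With the copies added, a calculation chosen after the data were seen, the log2 difference of Sumo2 was -0.18 (limma adjusted p = 0.918). Gm49325 stood at 0 and 1.78 TPM in K823R and at 0 and 0.44 TPM in WT, at most 1.54% of its sum with Sumo3.

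The subunits of the SUMO-activating enzyme stood below the modifiers. Sae1, the subunit without the catalytic cysteine, was at 100.1 and 93.7 TPM in K823R and at 107 and 90.4 TPM in WT. The K823R libraries lay between the WT libraries. Its log2 difference was -0.020 with SE 0.11 (limma adjusted p = 0.989), and it was 0.098 without WT replicate 1 and -0.14 without WT replicate 2. Uba2, the subunit with the catalytic cysteine, was at 76.6 and 69.4 TPM in K823R and at 72.4 and 70.7 TPM in WT. The WT libraries lay between the K823R libraries, and the log2 difference was 0.027 with SE 0.083 (limma adjusted p = 0.983). Without WT replicate 1 it was 0.044.

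The PIAS ligases were the scarcest of the set, and Pias4 was the highest of them in every library. Pias4, which encodes a ligase active at sites of DNA damage, was at 23.03 and 23.4 TPM in K823R and at 22.03 and 19.6 TPM in WT. The lower K823R library was above the higher WT one, as was the case for 19.4% of all genes tested. The means were 23.2 ± 0.233 TPM in K823R and 20.8 ± 1.71 TPM in WT (SD, n = 2 each), and the log2 difference was 0.15 with SE 0.098 and an interval of -0.10 to 0.41 (limma adjusted p = 0.918). It was 0.23 without WT replicate 1 and 0.071 without WT replicate 2, and it did not pass in either case. Pias1, a nuclear ligase, was at 9.42 and 10.4 TPM in K823R and at 10.5 and 9.35 TPM in WT. The group means were equal at 9.90 TPM, and the log2 difference was 4.39e-04 with SE 0.12 (limma adjusted p = 0.999), and 0.073 without WT replicate 1. Pias2 was at 14.1 and 11.5 TPM in K823R and at 14.2 and 14.04 TPM in WT. The low library was K823R replicate 2, without which the log2 difference of -0.14 (SE 0.13, limma adjusted p = 0.925) was -0.0043. Leaving out K823R replicate 1 gave -0.27, and leaving out WT replicate 1 gave -0.13. Pias3, named as an inhibitor of activated STAT3, was at 13.6 and 12.6 TPM in K823R and at 13.2 and 14.2 TPM in WT. Its groups overlapped, with a log2 difference of -0.062 and SE 0.10 (limma adjusted p = 0.957). Leaving out replicate 1 gave -0.12 for the K823R one and -0.11 for the WT one, and leaving out replicate 2 gave -0.0075 for the K823R one and -0.011 for the WT one. The plot of differences sets these estimates beside their intervals.

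**Figure D2:**
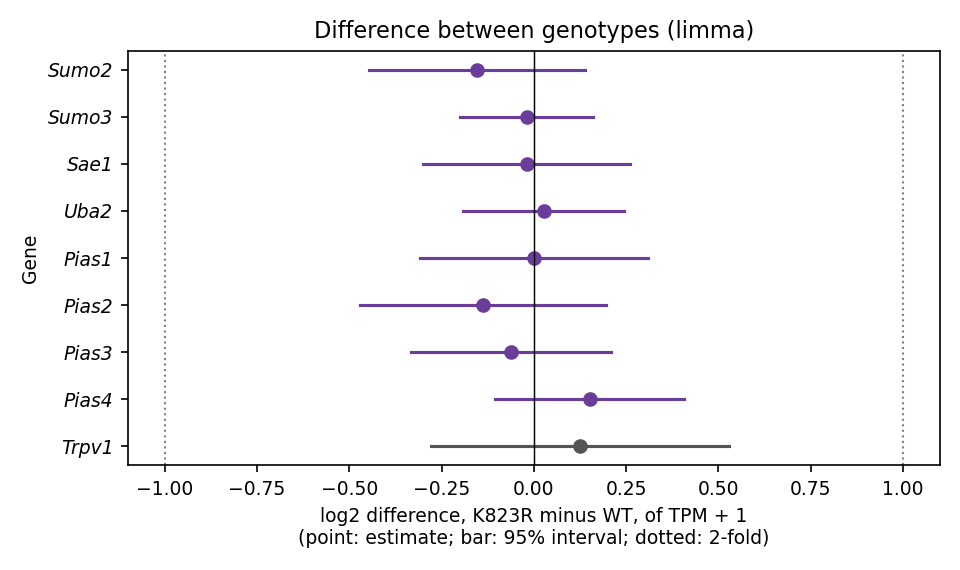
Log2 differences of TPM + 1, K823R minus WT, for the 8 SUMO genes and Trpv1, with 95% confidence intervals from limma; dotted lines mark 2-fold. Every interval includes 0 and none reaches a dotted line.

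The differences were set beside those of all genes within the members' range of abundance. Of the 8314 genes whose mean level lay within the range of the members, 75.6% had a difference no larger in size than the 0.15 of Sumo2. The median size in that range was 0.085, against 0.044 for the 8 members. The genes of the range were not matched to the level of each member, so these medians do not compare equal levels. The median SE was 0.10. By mean level Sumo2 stood at percentile 94.6 of the genes tested, Sumo3 at 90.9, Sae1 at 88.5 and Uba2 at 84.6. Pias4 stood at percentile 59.9, Pias2 and Pias3 both at 47.7, and Pias1 at 40.6.

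**Figure D3:**
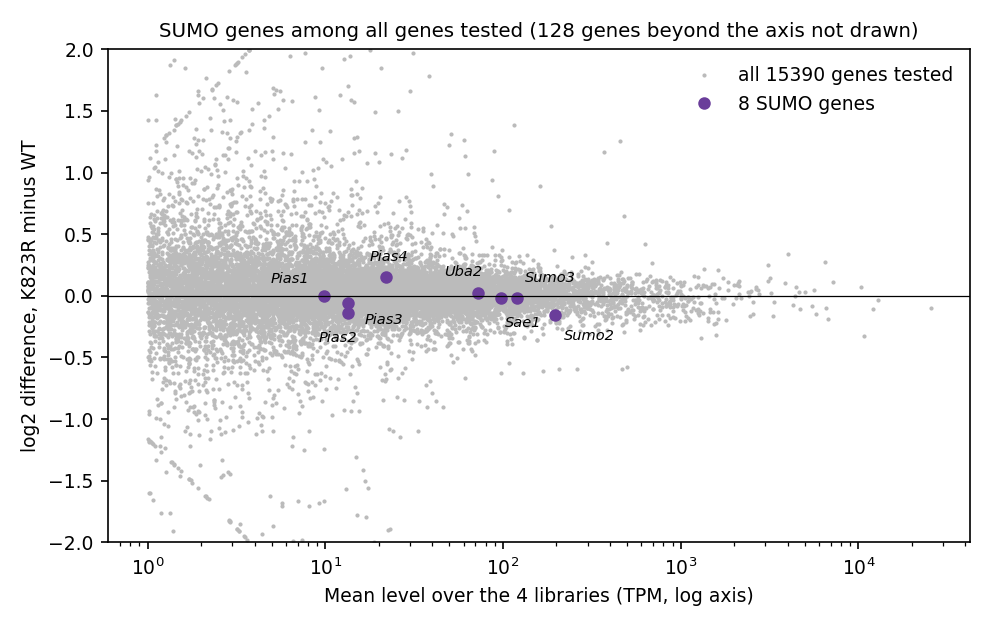
Mean TPM over the 4 libraries (log axis) against the log2 difference, K823R minus WT, for the 15390 genes tested in grey and the 8 SUMO genes in purple; 128 genes beyond a difference of 2 are not drawn. The SUMO genes lie between -0.15 and 0.15, within the grey cloud at their level.

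The order of the levels was the same in every library down to the fifth gene: Sumo2, Sumo3, Sae1, Uba2 and Pias4. Pias2 and Pias3 changed places, with Pias2 above Pias3 in replicate 1 of each group and below it in replicate 2 of each group, and their values did not separate beyond the spread of the libraries. Pias1 was last in all 4 libraries. Summed TPM of the modifiers was 304 and 304 in K823R and 310 and 346 in WT, that of the activating enzyme subunits 177 and 163 in K823R and 179 and 161 in WT, and that of the 4 Pias genes 60.1 and 57.8 in K823R and 59.9 and 57.2 in WT. The genotypes overlapped for the activating enzyme and the ligases. For the modifiers both K823R libraries lay below both WT libraries, with WT replicate 2 the high one. The same was the case for 14.6% of all single genes tested, and the modifier sum was not tested. The difference of the log2 sum of the Pias genes was 0.011 (exact permutation p = 0.667, two-sided). With 2 libraries against 2 that test cannot go below 0.333. Pias4 held 38.3% and 40.4% of the Pias sum in K823R and 36.8% and 34.3% in WT, and Pias1 held 15.7% and 18.0% in K823R and 17.5% and 16.3% in WT.

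Ratios within a library do not depend on how that library was scaled. Sumo2 exceeded Sumo3 by 1.60 and 1.53 times in K823R and by 1.53 and 1.93 times in WT, with WT replicate 2 apart. The difference of the log2 ratio was -0.14 (exact permutation p = 0.667, two-sided), and it was 0.033 without WT replicate 2. Sae1 exceeded Uba2 by 1.31 and 1.35 times in K823R and by 1.47 and 1.28 times in WT, with a difference of the log2 ratio of -0.047 (exact permutation p = 1). The subunits of the related NEDD8-activating enzyme, picked after their values were seen, were ordered the other way. Nae1, the counterpart of Sae1, stood at 0.644 and 0.628 of Uba3, the catalytic subunit, in K823R and at 0.623 and 0.607 in WT. Pias1 stood at 0.691 and 0.826 of Pias3 in K823R and at 0.792 and 0.657 in WT, with a difference of the log2 ratio of 0.067 (exact permutation p = 0.667). Ratios between genes depend on the gene length that went into TPM. The deposited length of each of the 8 equals that of 1 of its annotated coding transcripts. For Sumo3 it was 487 bases where those transcripts run from 364 to 2630 bases, and for Sumo2 it was 1051 bases in a range of 884 to 1051. How that length entered the deposited TPM is not given in the sources used here. A longer Sumo3 length would lower its level beside Sumo2, Sae1 and Uba2 in all libraries alike.

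**Figure D4:**
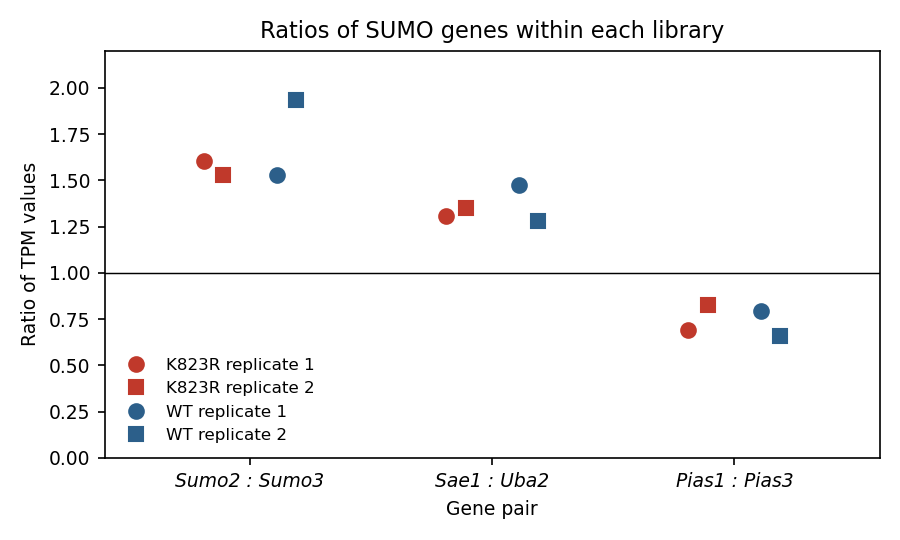
Ratios of TPM values within each library for 3 pairs of SUMO genes, with K823R libraries left of WT libraries; the line marks equal levels. Sumo2 exceeds Sumo3 and Sae1 exceeds Uba2 in all 4 libraries, and Pias1 lies below Pias3 in all 4.

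Trpv1, the SUMO target that carries the changed codon, did not pass the test. It was at 40.9 and 35.01 TPM in K823R and at 39.2 and 30.6 TPM in WT, with overlapping groups. Its log2 difference was 0.12 with SE 0.15 (limma adjusted p = 0.938), and it was -0.048 without WT replicate 2. Its mean level was below those of the modifiers and activating enzyme subunits and above those of the 4 ligases. Since the ganglion is a mixture and Trpv1 is a nociceptor gene while SUMO genes are used by most cells, these levels do not give the proportions inside a nociceptor.

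The other genes of the SUMO pathway did not pass the test either. The list held 26 genes, all of them tested: further SUMO and conjugation genes, ligases, proteases that remove SUMO, and proteins that bind it. By limma 0 passed and 0 had an unadjusted p below 0.05, with 15 above 0, 11 below and a median log2 difference of 0.037. The unadjusted count was 1 when K823R replicate 1, K823R replicate 2 or WT replicate 1 was left out, and 1 with the replicate number as a block. The groups did not overlap for 8 of 26, against 34.0% of all genes tested. Senp3, a nucleolar SUMO protease, was at 57.9 and 52.5 TPM in K823R and at 48.5 and 49.3 TPM in WT (log2 difference 0.17, SE 0.085, limma adjusted p = 0.918). Below 0 the smallest p belonged to Senp6, a protease that trims SUMO2 and SUMO3 chains, at 57.6 and 59.0 TPM in K823R and at 67.9 and 60.6 TPM in WT (log2 difference -0.14, limma adjusted p = 0.918). Ranbp2, a nuclear pore protein with ligase activity, followed at 14.7 and 14.1 TPM in K823R and at 16.5 and 14.97 TPM in WT (log2 difference -0.12, limma adjusted p = 0.918). These 3 genes had groups that did not overlap, and they were chosen for their small p.

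Genes of the sister cascades of NEDD8, UFM1 and ubiquitin did not pass the test either. Of 19 genes tested, 0 passed limma and 1 had an unadjusted p below 0.05, with 6 above 0, 13 below and a median log2 difference of -0.045. The unadjusted count was 0 without K823R replicate 1 or K823R replicate 2, 2 without WT replicate 1 and 3 without WT replicate 2. It was 2 with upper-quartile scaling and 3 with median-of-ratios scaling. The gene with the unadjusted p below 0.05 over all 4 libraries was Rps27a, which encodes ubiquitin fused to a ribosomal protein, at 269 and 276 TPM in K823R and at 316 and 362 TPM in WT. Its log2 difference was -0.31 with SE 0.089 (limma adjusted p = 0.918), and its copies were not searched for. Nedd8, the modifier of cullins, was at 379 and 356 TPM in K823R and at 409 and 415 TPM in WT (log2 difference -0.16, limma adjusted p = 0.918). Above 0, Rnf7, a subunit of cullin ligases, was at 287 and 297 TPM in K823R and at 252 and 283 TPM in WT (log2 difference 0.13, limma adjusted p = 0.918). Nedd8 thus stood above Sumo2 in every library on the TPM scale. No difference between the SUMO set and these cascades was tested.

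Promoter windows of the set were mostly rich in CG pairs. The RefSeq table of windows of 300 bases at gene starts, on GRCm38.p6, held 8 windows for 5 of the genes: Sumo2, Sumo3, Uba2, Pias1 and Pias3. A GC box, GGGCGG or its reverse complement CCGCCC, was found in 7 of the 8 windows and in at least 1 window of all 5 genes. The share of genes with such a window was 38.2% over the whole table and 67.9% over genes tested here. The Sumo2 window held 42 CG pairs and 2 GC boxes and was 76.3% G or C, against medians of 20 CG pairs and 60.7% over windows of tested genes. The window that lacked the box was a Sumo3 start inside the gene, with 2 CG pairs. The windows of Pias1 and Uba2 also lay inside the annotated genes, and they held the box. A match of these letters describes the window and is not a binding site.

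Genes with the nearest levels were listed for Sumo2 and Sae1. By Euclidean distance of log2(TPM + 1) over 4 libraries, among 12986 protein-coding genes, provisional symbols left out, the nearest to Sumo2 were Tmem256 (distance 0.11), Drap1 (0.14) and Mrpl41 (0.14). Tmem256 stood at 187 and 194 TPM in K823R and at 198 and 226 TPM in WT, with its highest value in WT replicate 2 as for Sumo2. Nearest to Sae1 were Agtpbp1 (distance 0.035), Atxn7l3 (0.048) and Fuca2 (0.061). Agtpbp1, which encodes a carboxypeptidase that trims glutamates from tubulin, stood at 99.4 and 92.4 TPM in K823R and at 108 and 89.3 TPM in WT, within 2 TPM of Sae1 in each library. These distances describe levels in 4 libraries. The genes were picked for closeness in these same libraries, so shared highs and lows follow from that choice.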

How the data were processed

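RNA from whole ganglia, with mRNA isolated per the labels' protocols, gave 2 K823R and 2 WT libraries, whose groups come from their titles. Of software, the submitters' processing notes list HISAT2, RSEM, edgeR and fastp 0.19.5, and of builds GRCm38.p6, with no role for any. The sources used here do not state the annotation, filters or strand setting. The authors deposited TPM, which keeps no read total, so depth is unknown and no counting interval is given. Each deposited TPM column sums to 1000000 within 1, with 21838 to 22119 genes above 0.

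A filter kept genes averaging 1 TPM or more. They were fitted with limma 3.58.1 in R 4.3.3 on log2(TPM + 1), which understates changes of low genes, with a variance trend, both groups in 1 fit, two-sided tests and Benjamini-Hochberg adjustment over all genes tested (threshold 0.05). The prior gave 2.67 degrees of freedom beside 2 residual ones. Single values used an exact permutation test. Members and lists were chosen with earlier results of these data known. Genes named were the 8 members, Trpv1, the 2 genes with the smallest p in each direction from each further list, the 3 genes nearest in level to Sumo2 and to Sae1, and markers. Some genes that this rule names are not reported here. GENCODE M21 on GRCm38 gave coordinates and transcripts, and copies were searched with BLAST 2.17.0. Same-numbered libraries were checked for pairing. Their deviations from the group means correlated at 0.05 over genes. The number was not used as a block in the main fit because the labels give no pairing. Alternatives were a pseudocount of 0.1 TPM, no filter, a filter of 5 TPM, 2 rescalings, a replicate block, leaving out each library, and adding copies to Sumo2 and Sumo3, the last chosen after seeing the data. Python 3.11.15 ran the tables (pandas 2.3.3) and the plots (matplotlib 3.10.9).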

Additional observations from a re-analysis of the deposited data

How the results depend on the processing

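No SUMO gene passed limma under any of the 10 planned settings, nor with copies added to Sumo2 and Sumo3, a setting chosen after seeing the data, and no gene of the further lists did. Without WT replicate 1 the unadjusted p fell below 0.05 for 1 member, Sumo2. Over all settings 0 or 1 of the other SUMO pathway genes and 0 to 3 of the NEDD8, UFM1 and ubiquitin genes had an unadjusted p below 0.05. Over these settings adjusted p ran from 0.656 to 1 for Sumo2 and Pias4. Rescaling put the Pias1 difference at -0.015 (upper quartile) and -0.020 (median of ratios) and that of the Pias sum at -0.0058 and -0.012. With 1 library left out, differences ran from -0.047 to 0.0083 for Sumo3, -0.14 to 0.098 for Sae1, -0.042 to 0.096 for Uba2, -0.072 to 0.073 for Pias1, -0.29 to -0.015 for Sumo2, -0.27 to -0.0043 for Pias2, -0.12 to -0.0075 for Pias3, 0.071 to 0.23 for Pias4 and -0.048 to 0.30 for Trpv1, and the median of the 8 genes from -0.055 to 0.026. Log2 ratios ran from -0.30 to 0.033 for Sumo2 to Sumo3, -0.15 to 0.055 for Sae1 to Uba2 and -0.068 to 0.20 for Pias1 to Pias3, and the Pias sum from -0.021 to 0.043. The cause was not tested. The signs of Sumo2, Pias2, Pias3 and Pias4 held in these settings. Over all genes 1 passed limma as reported, 2 with a filter of 5 TPM, 0 with no filter (1210 at an unadjusted p below 0.05) and 0 without each library in turn (574 to 1111). With the replicate number as a block 0 genes passed limma (916 unadjusted), and the block changed no call on a SUMO gene. The numbers are not known to pair the samples. TPM hides depth, so counting error behind the scarcer Pias genes is unknown.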
